A study of Mus musculus with 147 samples.

Results

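The nuclear lamins and the LINC complex were followed as 10 genes, Lmna, Lmnb1, Lmnb2, Sun1, Sun2, Syne1, Syne2, Syne3, Emd and Lbr, found by symbol among the 35438 genes of the deposited count tables. The cells were YFP-positive cells sorted from the kidney cortex of adult C57BL/6 mice of both sexes. WT renin cells came from Ren1c+/+ Ren1c-YFP mice and Renin-null cells from Ren1c-/- Ren1c-YFP mice, in which the renin gene is deleted. In both genotypes the 5′ regulatory sequence of Ren1c drives the YFP reporter, so a cell was collected for activity of that sequence and not for renin itself. As newborns, carriers of the deletion were also given saline injections, over 5 days in a row. Each cell sat in its own well of the Fluidigm C1 System, was checked under a microscope, and was read as full-length cDNA with SMART-Seq v4, a chemistry without molecular identifiers. There were 51 WT wells (4 mice, 1 capture, 1 sequencing library) and 96 Renin-null wells (12 mice, 4 captures, 2 libraries of 48 wells called YFP1 and YFP2).

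Lamins form the meshwork under the inner nuclear membrane, with A-type lamins from Lmna and B-type lamins from Lmnb1 and Lmnb2. The LINC complex links that meshwork to the cytoskeleton: SUN proteins span the inner membrane and bind the KASH domains of nesprins in the outer membrane. The authors reported that renin cells sense pressure through the nucleus and regulate the renin gene by it. Of the sensor's genes they named Itgb1 and Lmna in particular. Both increased along a trajectory toward the renin phenotype in a separate experiment on cells that lack the gene.

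No mouse or capture is labelled for a single well, so a genotype counted as 1 sample and nothing was tested between the 2. Capture and library differ along with genotype, and their parts cannot be told apart. Expected counts were rounded, summed over the wells of a genotype and scaled to counts per 1000000 counts (CPM). Intervals are exact at the 95% level and cover counting error only. Depth differed, with 26401 to 17124854 counts per WT well (median 1525972) and 3628 to 14505243 per Renin-null well (median 4107950). A well filter (100000 counts or more, 1000 genes or more, mitochondrial share of 25% or less) was passed by 15 WT and 57 Renin-null wells. Over the WT wells the median mitochondrial share was 6.85% in those that passed and 64.9% in the other 36.

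The level of the deleted gene matched the labels. Ren1 ran from 563 CPM to 313965 CPM in WT wells (median 21402 CPM) and reached at most 12.5 CPM in Renin-null wells, of which 16 of 96 had any count. Akr1b7, an aldo-keto reductase used as a renin cell marker, had a median of 254 CPM over WT wells and of 376 CPM over Renin-null wells. By library the Renin-null median was 63.4 CPM in YFP1, below that of WT, and 527 CPM in YFP2. The order of the genotypes turned in wells that passed the filter (3238 and 1425 CPM) and in the mean over all wells (2401 and 1454 CPM). The 6 smooth muscle and mural markers summed to 22061 CPM in WT, 24872 CPM in YFP1 and 26548 CPM in YFP2, with Rgs5 the most abundant of them in each.

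Markers of other kidney cells were higher in Renin-null wells. At least 1000 CPM summed over the markers of tubule, collecting duct, podocyte, endothelium, macrophage, fibroblast and proliferation stood in 33 of 96 Renin-null wells. It stood in 0 of 51 WT wells, which allows a share of up to 6.98%. The 5 podocyte markers summed to 86.1 CPM in WT, 143 CPM in YFP1 and 906 CPM in YFP2, with Synpo leading in WT and YFP1, Nphs1 leading in YFP2, and Podxl at 0 in WT. The 6 proximal tubule markers summed to 25.7, 425 and 374 CPM in the same order, led by Slc34a1, Fbp1 and Miox, and Slc5a2 was at 0 in WT. The 6 endothelial markers summed to 30.8, 32.6 and 386 CPM, led by Emcn, Kdr and Emcn, and Cdh5, Egfl7 and Plvap were at 0 in WT. The 5 fibroblast markers summed to 7.04, 144 and 380 CPM, led by Col1a1, Dcn and Col1a1, with Dpt at 0 throughout. The 6 proliferation markers summed to 2.28, 310.2 and 22.9 CPM, led by Birc5, Top2a and Birc5, and Mki67 was at 0 in WT. Loop and distal tubule markers summed to 0.515, 189 and 43.0 CPM, and Pvalb was at 0 in every library. Collecting duct markers summed to 10.6, 2.96 and 81.4 CPM, and macrophage markers to 0.985, 4.53 and 4.21 CPM, with C1qb at 0 throughout. Leaving out those 33 wells lowered the number of members at least 2-fold above the median gene from 3 to 1 (Lmnb2 and Syne3 lost), and at least 2-fold below it from 5 to 4, where Emd and Lbr were lost and Lmnb2 was added. Under the same removal 36.5% of all genes stood above and 34.3% below. It also moved the levels or ratios of Lmnb1, Sun2 and Syne2 by over 1.5 times.

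The Renin-null wells held 4 near-identical pairs, whose log2(CPM + 1) values correlated at 0.970 to 0.987, while no other pair of wells exceeded 0.894. Within each pair the counts differed by more than the sampling noise of the counts (36 to 110 chi-square units per gene), a comparison that does not tell separate cells from repeated preparations of 1 cell. Both wells were kept, and counting each pair once is given as an alternative. The 3 libraries reused the same sequencing indexes, with 48 index pairs shared between any pair of libraries.

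Across the 10 genes the Renin-null over WT ratio spread widely. The median log2 ratio of the members was 0.38, and that of all 18720 genes with a ratio was 1.17, so each gene is read against the median gene. At least 2-fold above the median gene stood 3 of the 10 (Lmnb1, Lmnb2 and Syne3), where 37.6% of all genes did, and at least 2-fold below it stood 5 (Sun1, Syne1, Syne2, Emd and Lbr), where 34.6% of all genes did. Lmna and Sun2 lay within 2-fold. The 3 above had few WT counts, 0 for Lmnb1, 41 for Lmnb2 and 3 for Syne3. Neither count of members is far from the share over all genes. Any count was present in a larger share of Renin-null than of WT wells for 5 members (Lmnb1, Lmnb2, Sun2, Emd and Lbr), where this held for 74.4% of all genes. Among wells that passed it was so for 3 (Lmnb1, Lmnb2 and Lbr), against 58.1% of all genes. After thinning each well to 62000 counts, which left out 2 WT and 13 Renin-null wells, it was so for 7, against 67.4% of all genes, and the shares were 65.3% and 87.95% for Lmna and 69.4% and 12.0% for Sun1, WT first. It was so for 8 after thinning to non-mitochondrial counts, against 62.1% of all genes, and at 10 counts or more in all wells for 9, against 73.7%.

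**Figure D1:**
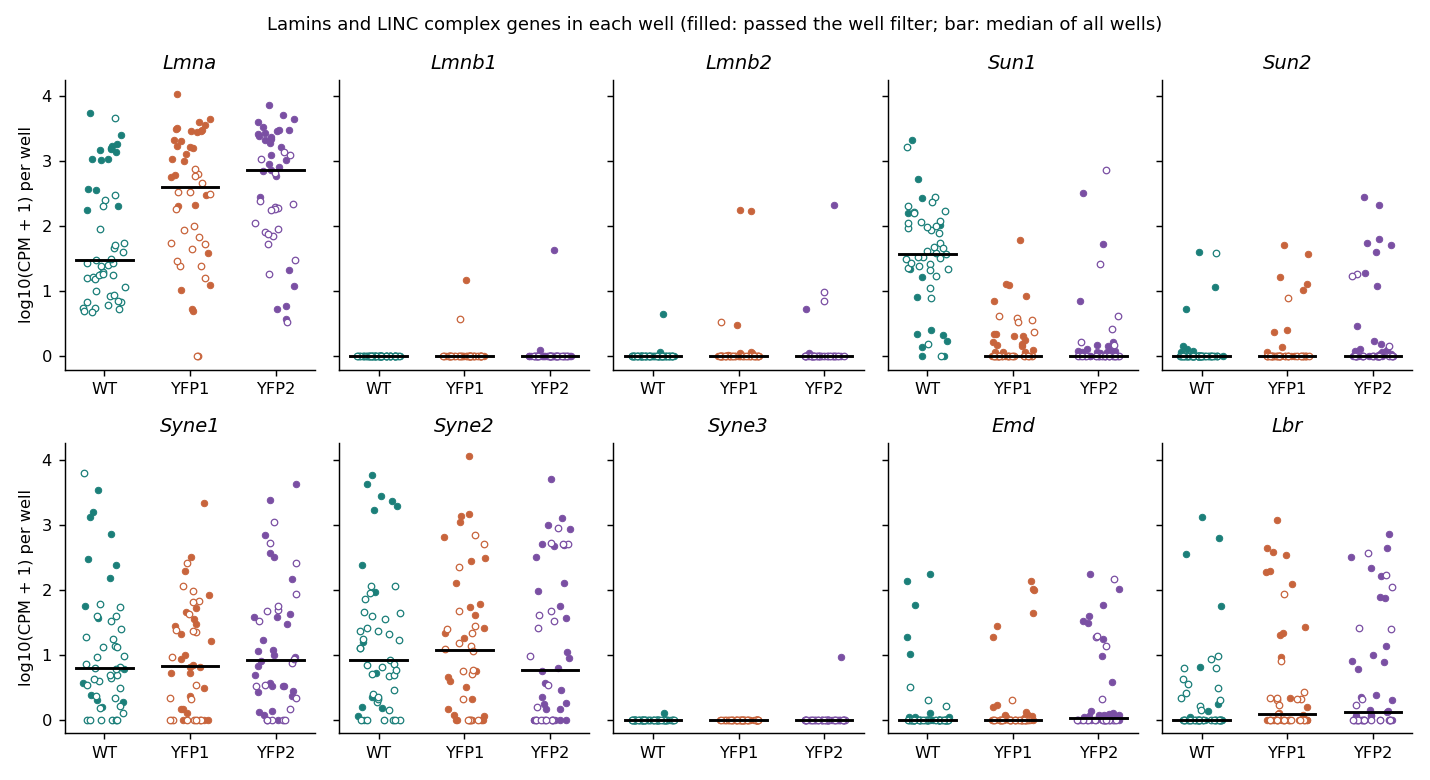
CPM of each gene in every well on a log10 scale (log10 of CPM + 1), by library, with filled points for wells that passed the well filter and bars at the median of all wells. Lmna medians stood at 28.9 CPM in WT, 399.7 CPM in YFP1 and 720.3 CPM in YFP2, Sun1 lay higher in WT, and Lmnb1 and Syne3 were at 0 in nearly every well.

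Lmna (chromosome 3, 88480147 to 88509956, minus strand, GRCm38) encodes lamins A and C, the lamins that stiffen the nucleus. It was by far the most abundant of the 10 per kilobase of exon in either genotype. WT wells ran from 3.87 CPM to 5598 CPM with a median of 28.9 CPM, and Renin-null wells from 0 to 10707 CPM with a median of 593 CPM. The ranges overlapped almost wholly, yet the medians were far apart. The sums were less so, at 1160.2 CPM (1156 to 1165) for WT and 1802 CPM (1798 to 1806) for Renin-null cells, a log2 ratio of 0.64 (0.63 to 0.64), which lay 0.54 below the median gene. The ratio was 0.50 in YFP1 and 0.74 in YFP2. The place of Lmna depended on how wells were weighed. On the difference of mean log2(CPM + 1) or log2(CPM + 10) it was the 1 member at least 2-fold above the median gene, by 2.04 and 1.90, and with the highest well of each gene left out its distance from the median gene was -1.05.

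WT wells fell into separate levels of Lmna in counts, though not in CPM. In 15 of 51 wells Lmna had 1754 counts or more, together 99.6% of its WT counts, and in the other 36 it had at most 75 counts (median 15.5). In CPM the 15 ran from 175 to 5598 and the 36 from 3.87 to 361, and 4 of the 36, each of 110872 counts or fewer in all, lay above the lowest of the 15. Of the 15, 14 had passed the well filter. Among wells that passed, Lmna ran from 175 to 5598 CPM in WT (median 1380.2 CPM, n = 15) and from 2.74 to 10707 CPM in Renin-null wells (median 1680.3 CPM, n = 57). At least 100 CPM was reached in 15 of 15 of those WT wells (100%, 78.2% to 100%) and in 47 of 57 of those Renin-null wells (82.5%, 70.1% to 91.3%). Among wells that did not pass, 4 of 36 WT and 19 of 39 Renin-null wells reached 100 CPM. The medians of the wells that did not pass were 17.1 CPM (WT) and 99.7 CPM (Renin-null). The part of well quality in the Lmna medians was not tested.

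Over all wells Lmna was related to mural markers and to the mitochondrial share. In the wells that passed the filter these relations were weaker, except that with the mitochondrial share in WT, which changed little. Over the 51 WT wells, Spearman's correlation of log2(CPM + 1) was 0.63 with Acta2 and 0.71 with Tagln, both smooth muscle genes, 0.47 with Myh11, 0.50 with Akr1b7 and 0.27 with Ren1. The correlation with the mitochondrial share was -0.69 over the same wells. Over the 96 Renin-null wells the correlation was 0.33 with Acta2, 0.45 with Tagln, 0.53 with Myh11, 0.27 with Akr1b7 and -0.56 with the mitochondrial share. Within the 15 WT wells that passed, the correlation was 0.21 with Acta2, 0.23 with Tagln, 0.0036 with Myh11, -0.02 with Akr1b7 and -0.64 with the mitochondrial share. Within the 57 Renin-null wells that passed it was -0.0013 with Acta2, 0.24 with Tagln, 0.37 with Myh11, 0.09 with Akr1b7 and -0.24 with the mitochondrial share. Wells of 1 library share their preparation, and depth and quality enter both values. Of the 57 Renin-null wells that passed, 49 had at least 1000 CPM of smooth muscle and mural markers and 8 had less. Lmna had a median of 2015 CPM in the 49 and of 393 CPM in the 8, with ranges of 4.04 to 10707 CPM and 2.74 to 3001 CPM that overlapped. Of the 57 wells, 24 are among the 33 with markers of other cell types. Within the 8, wells 19, 23, 36, 39 and 72 are among those 33, and wells 7 and 51 are not. The part of those markers in this split was not tested.

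**Figure D2:**
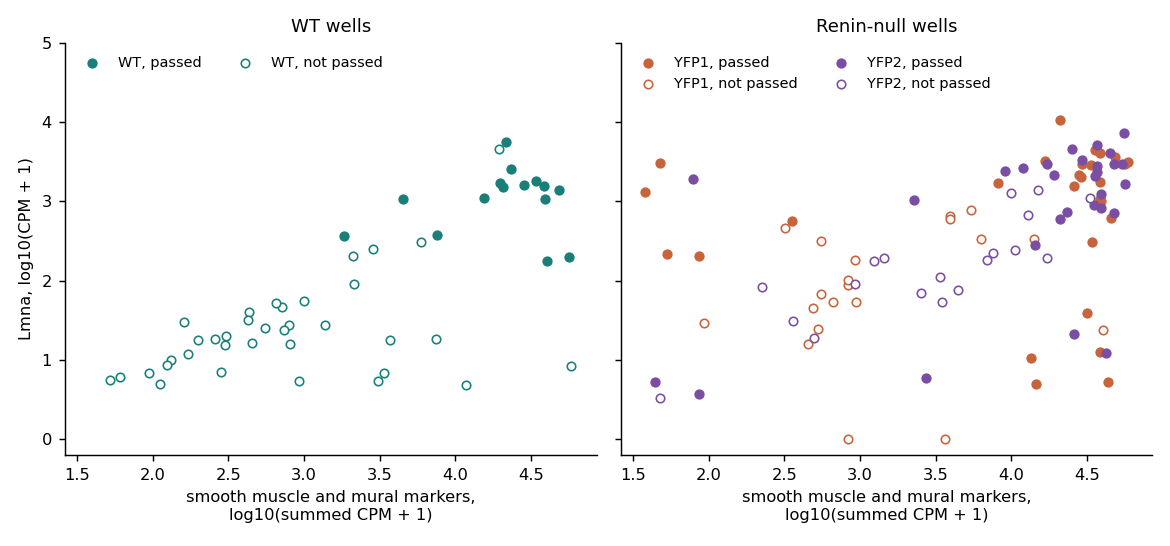
Lmna against the summed smooth muscle and mural markers in each well, both as log10(CPM + 1), for WT wells on the left and Renin-null wells on the right. All 15 filled WT points lie at 175 CPM of Lmna or more, while some filled Renin-null points with abundant mural markers lie under 10 CPM.

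The B-type lamins were almost not counted. Lmnb1 (chromosome 18, 56707813 to 56753424, plus strand) encodes lamin B1, which is low in many resting cells. It had no count in any of the 51 WT wells, which allows a share of up to 6.98% of wells, and counts in 4 of 96 Renin-null wells (4.17%, 1.15% to 10.3%). Well 67 of YFP2 held 309 of its 318 Renin-null counts, in a well of 11410 genes with 468 CPM of proliferation markers. Against a floor of 3 counts over the WT wells, Lmnb1 was 52.6-fold higher in Renin-null cells, a value that rested on that well. The exact lower limit of its log2 ratio, which also takes in the counting error of the Renin-null sum, was 5.41. Without the wells of over 9000 genes only 9 counts were left, and the log2 ratio against the floor fell from 5.72 to 0.62. Well 67 is not among the 33 with other markers, though it had 329 CPM of fibroblast markers beside the 468 CPM of proliferation markers. Without those 33 the ratio was 6.37, over 314 Renin-null counts of which well 67 held 309.

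Lmnb2 (chromosome 10, 80901203 to 80918245, minus strand) encodes lamin B2. It ran from 0 to 3.48 CPM in WT wells and from 0 to 210 CPM in Renin-null wells, with a median of 0 in both. Counts were present in 2 of 51 WT and 13 of 96 Renin-null wells. The sums were 0.207 CPM (0.149 to 0.281) and 9.73 CPM (9.43 to 10.0), a log2 ratio of 5.55 (5.11 to 6.04). Nearly all of it came from 3 Renin-null wells, well 93 with 1342 counts, well 45 with 1316 and well 39 with 1123. Wells 93 and 45 are one of the near-identical pairs and had 1224 and 1268 CPM of proximal tubule markers beside 3504 and 3580 CPM of renin cell markers and 29440 and 29120 CPM of smooth muscle and mural markers, and well 39 had 8448 CPM of proliferation markers with 0.771 CPM of renin cell markers. The 33 wells with markers of other cell types held 99.8% of the Renin-null Lmnb2 counts. Without them 7 counts were left in 63 wells and the log2 ratio was -2.89, the opposite direction. That direction rested on WT well 6, which held 39 of the 41 WT counts, since without it as well the ratio was 1.38 (-1.01 to 4.69) over 2 WT and 7 Renin-null counts. Over all Renin-null wells the higher level did not rest on well 6. With the highest well of each genotype left out the ratio was 9.30, against 2 WT counts. The part of those other markers in the Lmnb2 result was not tested.

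Sun1 and Syne1 were the members with the lowest ratios, so the promoter sequences of these genes are shown. Each is the 250 bases before the first annotated start in RefSeq, 5′ to 3′ on the gene's own strand, and overlaps no annotated exon in GENCODE M21. The capitals mark the GC box letters GGGCGG on either strand, read as CCGCCC on the other strand.
Sun1, chr5:139200387-139200636 (GRCm38.p6, plus strand): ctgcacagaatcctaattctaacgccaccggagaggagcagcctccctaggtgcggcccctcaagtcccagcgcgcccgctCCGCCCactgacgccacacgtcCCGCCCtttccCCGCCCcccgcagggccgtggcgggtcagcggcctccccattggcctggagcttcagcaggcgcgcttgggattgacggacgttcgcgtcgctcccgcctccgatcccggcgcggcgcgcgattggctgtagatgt
Syne1, chr10:5550693-5550942 (GRCm38.p6, minus strand): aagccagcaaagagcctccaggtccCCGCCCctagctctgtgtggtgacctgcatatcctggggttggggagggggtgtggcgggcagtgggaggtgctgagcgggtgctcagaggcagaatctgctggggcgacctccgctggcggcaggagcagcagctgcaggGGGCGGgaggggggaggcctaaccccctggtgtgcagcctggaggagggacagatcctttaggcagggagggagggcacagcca
The Sun1 window held 3 GC boxes and the Syne1 window 2, at a GC content of 70% and 68%. RefSeq lists 1 further start of Sun1 and 2 of Syne1, whose windows held none, and GENCODE begins Syne1 upstream of the start shown, so its window lies within the GENCODE span of the gene. At least 1 GC box stood in 32.7% of 32851 RefSeq windows of the same length, so its presence is common, and it is given as a description only.

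Sun1 (chromosome 5, 139200637 to 139249840, plus strand) encodes a SUN protein of the inner nuclear membrane. It stayed at least 2-fold below the median gene in all 15 alternatives. WT wells ran from 0 to 2138 CPM with a median of 35.9 CPM, and Renin-null wells from 0 to 729 CPM with a median of 0. The ranges overlapped, but most WT wells lay above most Renin-null wells. The sums were 75.8 CPM in WT (74.6 to 76.99) and 17.5 CPM in Renin-null cells (17.0 to 17.9), a log2 ratio of -2.12 (-2.16 to -2.08), or 4.34-fold higher in WT. WT well 28 held 41.9% of the WT counts, and well 89 of YFP2 held 49.6% of the Renin-null counts. With the highest well of each genotype left out the ratio was -2.32. Over all wells of a library the ratio was -4.01 in YFP1 and -1.43 in YFP2, where well 89 held 3451 of the 6107 counts. Counts were present in 48 of 51 WT wells (94.1%, 83.8% to 98.8%) and 44 of 96 Renin-null wells (45.8%, 35.6% to 56.3%).

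Sun1 was higher in WT both in wells that passed the well filter and in wells that did not. At least 10 CPM was reached in 33 of 36 WT wells and 2 of 39 Renin-null wells that did not pass, and in 7 of 15 (46.7%, 21.3% to 73.4%) and 5 of 57 (8.77%, 2.91% to 19.3%) of those that did. In wells that passed, the median was 7.21 CPM over the WT wells and 0.177 CPM over the Renin-null wells, and the log2 ratio of the sums was -2.51. At least 100 CPM was reached in 5 of 15 WT and 1 of 57 Renin-null wells that passed, and in 10 of 36 and 1 of 39 of those that did not. Mean levels were 218 and 8.57 CPM in wells that passed, and 117 and 19.8 CPM in the others. Single wells carried these means. Among the WT wells that did not pass, well 27, of 44081 counts in all, reached 1633 CPM, beside a median of 42.7 CPM. Without WT well 23, of 110872 counts in all, 218 became 80.5 CPM, without Renin-null well 89 the 8.57 became 3.00 CPM, and without Renin-null well 86 the 19.8 became 1.14 CPM. Summed over the Renin-null wells that did not pass, Sun1 was at 50.4 CPM, and at 0.932 CPM without well 86. The sum over all WT wells was 75.8 CPM. In the WT library the CPM of Sun1 went down with depth (Spearman's correlation -0.41 over 51 wells), unlike that of Lmna (0.38). Wells under 1000 Sun1 counts that shared an index with one of the 3 WT wells above that level had a median of 57 counts, and the 12 that shared none had 34. In YFP2 the median was 0 both in the 26 such wells that shared an index and in the 20 that shared none. For Lmna all 36 WT wells under 1000 counts shared an index with a well above that level. The part of depth and of shared indexes in these levels was not tested.

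Sun2 (chromosome 15, 79724070 to 79742536, minus strand), the other widely expressed SUN gene, went the other way. It ran from 0 to 39.9 CPM in WT wells and from 0 to 283 CPM in Renin-null wells, both with a median of 0. The sums were 3.16 CPM (2.92 to 3.42) and 13.7 CPM (13.3 to 14.0), a log2 ratio of 2.11 (1.99 to 2.24), which lay 0.94 above the median gene and just within the 2-fold band. It was at least 2-fold above in 5 of 15 alternatives, by 1.25 and 2.63 after thinning, 1.82 in YFP2 alone, 1.92 with the highest well of each gene left out and 3.02 without wells of over 9000 genes, and in YFP1 alone its distance from the median gene was -0.53. At 10 CPM or more it stood in 3 of 51 WT and 14 of 96 Renin-null wells. In wells that passed, any count was present in 7 of 15 WT (46.7%, 21.3% to 73.4%) and 26 of 57 Renin-null wells (45.6%, 32.4% to 59.3%). The 2 libraries differed, with 3.59 CPM in YFP1 and 22.1 CPM in YFP2, and ratios of 0.18 and 2.81. The highest YFP2 wells were well 87 with 1563 counts, which had 2284 CPM of podocyte and 1627 CPM of endothelial markers, and well 73 with 1552 counts, which had 1295 CPM of endothelial markers. In WT, 77.9% of the Sun2 counts came from 1 well of 10791 genes, and without wells of over 9000 genes the ratio rose to 4.15. Without the 33 wells with other markers the Renin-null level was 8.17 CPM and the ratio 1.37.

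The 2 giant nesprins were lower in Renin-null cells in summed counts. Syne1 (chromosome 10, 5020917 to 5551482, minus strand) and Syne2 (chromosome 12, 75818134 to 76110926, plus strand) encode nesprin-1 and nesprin-2, which tie the nuclear envelope to actin. Syne1 ran from 0 to 6321 CPM in WT wells (median 5.17 CPM) and from 0 to 4144 CPM in Renin-null wells (median 6.68 CPM). Syne2 ran from 0 to 5824 CPM in WT wells (median 7.25 CPM) and from 0 to 11242 CPM in Renin-null wells (median 6.50 CPM). The ranges and the medians of both genes overlapped closely between the genotypes, and the sums leaned on a few wells.

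Syne1 summed to 604 CPM (601 to 608) over WT and 178 CPM (177 to 180) over Renin-null wells, a log2 ratio of -1.76 (-1.77 to -1.75), which was -2.95 for YFP1 and -1.21 for YFP2. Well 49 held 10186 of the 14202 YFP1 counts, and without it the YFP1 ratio was -4.73. That well is titled YFP1 but is numbered among the YFP2 wells. The Syne2 sums were 1167 CPM (1162 to 1172) and 448 CPM (446 to 450), a log2 ratio of -1.38 (-1.39 to -1.37), which was -1.01 for YFP1 and -1.79 for YFP2. Without the 33 wells with other markers the Renin-null level of Syne2 was 293 CPM and the ratio -1.995. The highest well held 34.9% of the WT and 35.6% of the Renin-null counts of Syne1, and 31.6% and 35.5% of those of Syne2. On the difference of mean log2(CPM + 10), which weighs wells alike, Syne1 gave -0.08 and Syne2 gave 0.09. In wells that passed the filter, at least 100 CPM of Syne1 was reached in 7 of 15 WT wells (46.7%, 21.3% to 73.4%) and 9 of 57 Renin-null wells (15.8%, 7.48% to 27.9%). For Syne2 these were 7 of 15 and 17 of 57 (29.8%, 18.4% to 43.4%). Median levels in those wells were 54.1 and 6.92 CPM for Syne1, and 90.8 and 5.14 CPM for Syne2. Over all WT wells Syne1 and Syne2 were related to each other at a Spearman's correlation of 0.46 (n = 51), with both counted in 39 wells. Over the Renin-null wells it was 0.08 (n = 96, both counted in 61). In wells that passed it was 0.65 for WT (n = 15) and 0.05 for Renin-null (n = 57).

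Syne3 (chromosome 12, 104929933 to 105009809, minus strand) encodes nesprin-3, which binds plectin and so intermediate filaments. It was close to absent at this depth, with 3 counts in 1 WT well and 45 counts in 1 Renin-null well, well 87 of YFP2. Its log2 ratio of 2.90 (1.26 to 5.23) compared those 2 wells only, and well 87 is among the 33 with other markers, so that without them no Renin-null count was left.

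Emd (chromosome X, 74254687 to 74261548, plus strand) encodes emerin, a LEM-domain protein of the inner membrane that binds lamin A. It ran from 0 to 172 CPM in WT wells and from 0 to 174 CPM in Renin-null wells, with a median of 0 in both. Counts were present in 12 of 51 WT wells (23.5%, 12.8% to 37.5%) and 40 of 96 Renin-null wells (41.7%, 31.7% to 52.2%), while the sums were 22.5 CPM (21.9 to 23.2) and 16.7 CPM (16.3 to 17.1). Over all wells share and sum thus pointed in opposite directions. In wells that passed the filter the shares were alike, at 9 of 15 (32.3% to 83.7%) and 34 of 57 (59.6%, 45.8% to 72.4%). Of the sum, 47.2% of the WT counts came from the well of 10791 genes. The log2 ratio was -0.43 (-0.49 to -0.38), and 0.14 without wells of over 9000 genes. It was above 0 in 8 of 15 alternatives, among them 0.91 and 0.82 after thinning to total and non-mitochondrial counts. At those thinnings Emd lay inside the 2-fold band, at -0.45 and -0.35 from the median gene. Its distance from the median gene was -1.603, and -0.989 without wells of over 9000 genes and -0.9900 without the 33 wells with other markers, both just inside the 2-fold band. GENCODE tags Emd as an overlapping locus, and the chemistry does not mark strand.

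Lbr (chromosome 1, 181815335 to 181843046, minus strand) encodes the lamin B receptor, which holds heterochromatin at the membrane and also reduces sterols. It ran from 0 to 1328 CPM in WT wells (median 0) and from 0 to 1175 CPM in Renin-null wells (median 0.252 CPM). The sums were close, at 101 CPM (99.4 to 102) and 109 CPM (108 to 110), a log2 ratio of 0.12 (0.09 to 0.14). WT well 50 held 43.2% of the WT counts, and with the highest well of each genotype left out the ratio was 0.65. Its distance from the median gene was -1.055, at the edge of the 2-fold band, and -0.97 with near-identical wells counted once, -0.77 without the 33 wells with other markers and -0.44 in YFP1 alone. At least 10 CPM was reached in 4 of 51 WT wells (7.84%, 2.18% to 18.9%) and 24 of 96 Renin-null wells (25.0%, 16.7% to 34.9%). Within wells that passed these were 4 of 15 (26.7%, 7.79% to 55.1%) and 18 of 57 (31.6%, 19.9% to 45.2%). In the 8 passing Renin-null wells with under 1000 CPM of mural markers the median was 104 CPM, against 0.270 CPM in the 49 with more. Wells 19, 23, 36, 39 and 72 of these 8 are among the 33 with other markers, and wells 7 and 51 are not. The part of those markers in this difference was not tested.

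**Figure D3:**
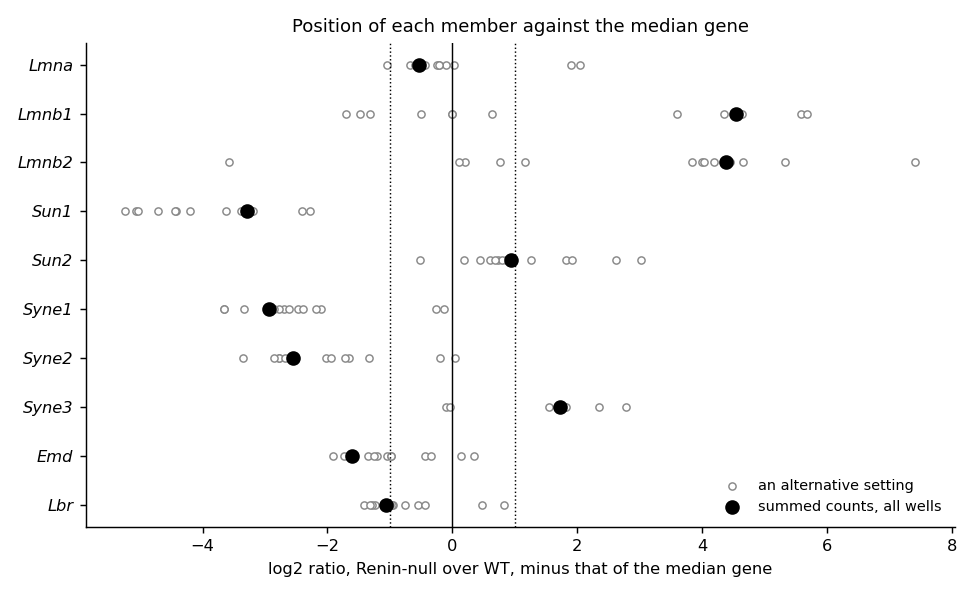
Log2 ratio of each gene, Renin-null over WT, minus that of the median gene, for the summed counts of all wells (black) and under each alternative setting (open), with dotted lines at 2-fold. Sun1 stayed more than 2-fold below the median gene in all 15 alternatives, while Lmna, Lmnb1 and Lmnb2 had points beyond 2-fold on both sides.

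Levels between genes were compared per kilobase of exon. In WT cells the order ran from Lmna at 199 CPM per kilobase through Syne2 (43.7), Lbr (21.2), Syne1 (14.9), Sun1 (9.97), Emd (8.96), Sun2 (0.583), Lmnb2 (0.0483) and Syne3 (0.0027) to Lmnb1 at 0. In Renin-null cells it ran from Lmna at 309 CPM per kilobase through Lbr (23.0), Syne2 (16.7), Emd (6.65), Syne1 (4.41), Sun2 (2.52), Sun1 (2.30), Lmnb2 (2.27) and Lmnb1 (0.269) to Syne3 (0.020). Neighbours such as Sun1 and Emd in WT, or Sun2, Sun1 and Lmnb2 in Renin-null cells, lay closer than the well-to-well spread of either gene. The places of Lmnb2, Syne3 and Lmnb1 in WT rest on 41 counts or fewer. With the longest annotated transcript as the length, 8 of the 10 kept their place in both genotypes, and Sun1 and Sun2 exchanged places in Renin-null cells. The exons of Syne2 cover 26726 bases, but its median annotated transcript has 1624, near the 1536 of Lmna. Levels at the median transcript length were not computed, so the distance of Lmna from Syne2 holds for the lengths used. Between the SUN genes the level in WT was clearly on the side of Sun1. In Renin-null cells the summed levels were near each other, with 49.6% of the Sun1 counts in well 89.

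**Figure D4:**
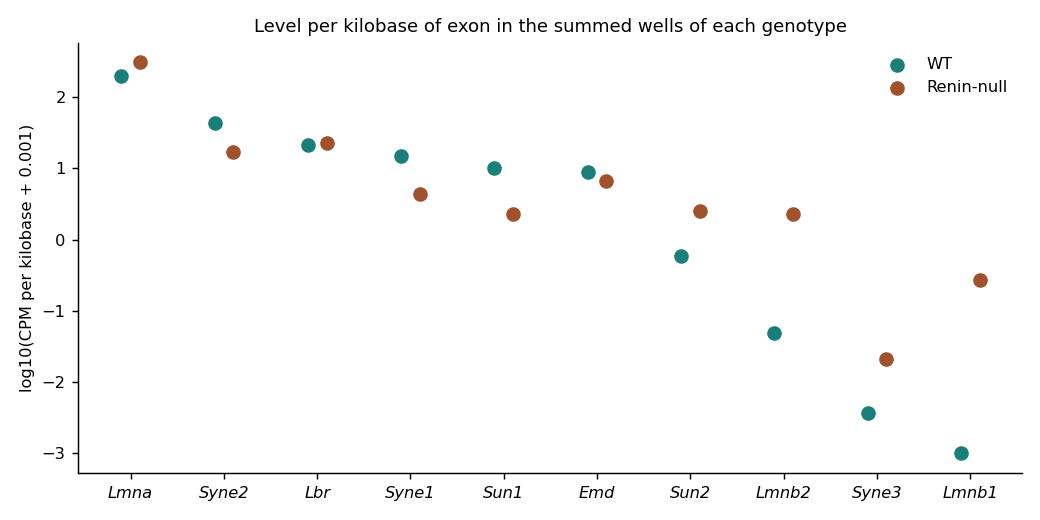
Level of each gene in the summed wells of each genotype, in CPM per kilobase of exon on a log10 scale with 0.001 added, ordered by WT. Lmna stood highest in both, at 199 and 309 CPM per kilobase, and the Sun1 and Sun2 points drew together in Renin-null cells.

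Genes that act with lamins and the LINC complex lay on both sides of the median gene. Their log2 ratios ran from -2.51 to 9.46 over 31 genes, and those of the members from -2.12 to 5.72 over 10. Of 34 genes in 5 lists, 31 had a ratio, of which 10 stood at least 2-fold above the median gene (32.3%, against 37.6% of all genes), 11 at least 2-fold below (35.5%, against 34.6% of all genes) and 10 within, with a median log2 ratio of 1.08 against 1.17 over all genes. Single wells carried many of these ratios, since 1 well held at least 90% of the WT counts for 12 of the 30 genes with a WT count, and of the Renin-null counts for 3 of 31. Of 5 genes of lamin maturation, Zmpste24, the protease that cuts prelamin A, lay at a log2 ratio of 1.13, close to the median gene. Within this list the subunits of farnesyltransferase parted, with Fnta at 7.92 (15 WT counts) and Fntb at -2.28. Well 47 held 98.5% of the 2490 WT counts of Fntb. Rce1 was at 1.92 and Icmt at 0.83, where 1 WT well held 99.2% of the Icmt counts. Icmt was at 1.92 in YFP1, with 4056 counts, and at -3.48 in YFP2, with 115.

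Of 12 lamin partners of the inner nuclear membrane, 2 stood above and 5 below, where 37.6% and 34.6% of all genes did. The highest ratios were those of Lemd3 (5.80), which encodes the LEM-domain protein MAN1, and Tmem43 (3.49), which encodes LUMA. Lemd3 was at 6.90 in YFP1 and 1.49 in YFP2, and well 39 held 93.7% of its Renin-null counts. Tmem43 was at -0.20 in YFP1 and 4.31 in YFP2, and 1 well held 92.1% of its WT counts. The lowest were those of Tor1a (-2.46), the torsin ATPase of the nuclear envelope, and Lemd2 (-2.26), for which 1 well each held 96.1% and 94.4% of the WT counts. Lemd2 had no count in YFP1 and was at -1.38 in YFP2, with 428 counts. Of 6 other SUN and KASH genes, mostly known from testis or blood, 3 had a ratio, Lrmp (3.46), Spag4 (2.75) and Syne4 (2.40 against the floor), of which Spag4 had the highest WT level, 0.323 CPM. Sun3, Sun5 and Ccdc155 had 2 counts or fewer in all.

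Of 8 genes that link the nucleus to the cytoskeleton, 2 stood above and 4 below, against the same shares of all genes. Fhod1, a formin, had the highest ratio of all 31 genes at 9.46 with 16 WT counts, and Bicd2, an adaptor of dynein, was at 2.37. For Fhod1, well 94, from a near-identical pair, held 14337 of the 22664 Renin-null counts, and the next well held 7248. Klc1 and Kif5b, the light and heavy chain of kinesin-1, had the lowest at -2.51 and -0.79. Kif5b was at -2.58 in YFP1 and -0.11 in YFP2. Itgb1, the integrin beta-1 gene, was at 1.21, or 2.32-fold higher in Renin-null cells, which was almost on the median gene. It was at 2.11 without WT well 47, which held 49.4% of its WT counts. From these same cells the authors reported Itgb1 as strongly raised in Renin-null cells. Their in situ hybridization also showed more Itgb1 mRNA in Renin-null than in WT renin cells. Median levels of Itgb1 were 2.15 CPM over WT and 60.2 CPM over Renin-null wells, and 85.8 and 200.3 CPM in wells that passed. The 3 nuclear pore basket genes gave Nup153 at 7.39 (25 WT counts), Nup50 at 4.29 and Tpr at -0.58. For Nup50, WT well 10 held 99.5% of the WT counts. Nup153 was at 0.39 in YFP1, with 30 counts, and at 8.26 in YFP2, with 8421 counts.

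**Figure D5:**
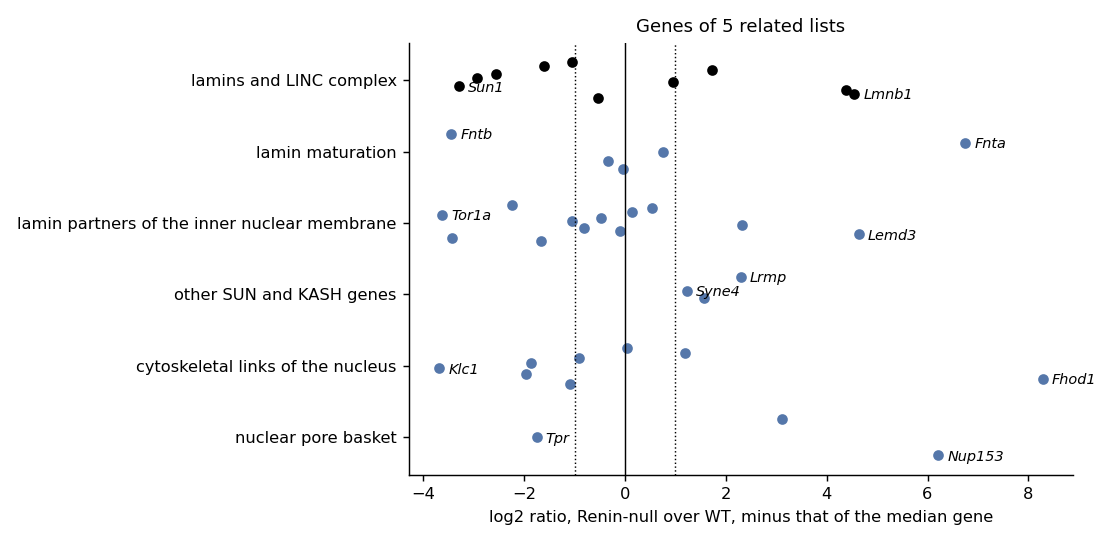
Log2 ratio minus that of the median gene for the 10 members (black) and the genes of 5 related lists (blue), with the highest and lowest gene of each list named. Points lie on both sides of the median gene in every list but that of other SUN and KASH genes, whose 3 points lie above it.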

How the data were processed

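Per the sources, the authors trimmed reads with Trimmomatic 0.39, checked them with FastQC 0.11.5, quantified them with Salmon 0.11.2 on GRCm38.p6 (mm10) and summed transcripts to genes with tximport (lengthScaledTPM), and they deposited expected counts per gene and cell, with a correction for length and none for depth. Tool versions are those of the submitters' processing notes. The authors normalized with SCTransform for their own comparison. No filter on cells was stated and no doublet caller was run, and all 147 wells were kept. The 10x Chromium experiment of the study was not analysed here.

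Expected counts were rounded to whole numbers, summed per genotype and scaled to CPM. A genotype at 0 was set to 3 counts over the genotype, and no ratio was taken where both held 3 or fewer. A gene was called above or below when its log2 ratio lay at least 1 from that of the median gene, a rule that no scaling of the sums changes. Intervals were exact Poisson for sums, exact conditional for ratios and Clopper-Pearson for shares. The members and lists were chosen with earlier results of these data known. All 10 members were named, and of each related list the 2 genes with the highest and the 2 with the lowest ratio, with Zmpste24, Itgb1 and genes of lists under 5 added. Wells named by number, and the limit of 90% of counts in 1 well, were chosen after their values were seen. Alternatives were other ways of summing, pseudocounts of 1 and 10, wells thinned to 62000 total or 35000 non-mitochondrial counts, TMM factors, each library alone, the highest well left out, the well filter, near-identical wells counted once, SCTransform and a filter of 100 summed counts. Added after the data were seen were the removal of wells of over 9000 genes, with other markers or singly by number, shares in wells that passed, a limit of 100 CPM and the longest transcript. Lengths and positions came from GENCODE M21 by symbol, where all 10 matched. The ratio was tested on simulated data, Poisson counts drawn from a mean pooled over all wells. That test covers counting error only, since the simulated wells had no further spread between them. Tools used here were edgeR 4.0.16, Seurat 5.3.0, sctransform 0.4.2 and R 4.3.3, and scipy 1.17.1, pandas 2.3.3, numpy 2.4.6 and matplotlib 3.10.9 under Python 3.11.15.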

Additional observations from a re-analysis of the deposited data

How the results depend on the processing

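The median log2 ratio of the members was 0.89 as the mean over wells of CPM, 0.41 and 0.61 with wells thinned to total or non-mitochondrial counts, -0.33 with TMM factors, 0.22 without mitochondrial genes, 0.18 and 0.36 with YFP1 or YFP2 alone, 0.57 with the highest well of each gene left out, 0.13 in wells that passed the well filter, 0.43 with near-identical wells counted once, 0.49 with SCTransform corrected counts, 0.33 without wells of over 9000 genes and -0.30 without wells with markers of other cell types. In each of these it stayed below the median gene. On the difference of mean log2(CPM + 1) or log2(CPM + 10) it was 0.22 and 0.12, above a median gene of 0.13 and 0.05. The direction thus reversed on those scales, where Lmna stood at least 2-fold above the median gene and Sun1 below, with no other member past 2-fold. TMM moved the median of all genes from 1.17 to 0.47.

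The count of 3 members above fell to 1 after thinning to non-mitochondrial counts, where that 1 was Sun2, and in YFP1 alone. It was also 1 with SCTransform, whose filter on cells did not keep Lmnb1 and Syne3, and without wells with markers of other cell types. After thinning to total counts, with the highest wells left out or with a filter of 100 summed counts it was 2, and in YFP2 alone 4. Sun2 stood above in 5 of 15 alternatives. The count of 5 below was 4 to 7 in the alternatives other than the log scales, and Sun1, Syne1 and Syne2 stood below in each of them. Emd, Lbr or both were lost after either thinning, in YFP1 alone, with near-identical wells counted once, and without wells of over 9000 genes or with other markers. Lmnb1 was added after either thinning, Lmna and Lmnb1 with the highest wells left out, and Lmnb2 without wells with other markers. Genes outside the 2-fold band that crossed the median gene were Lmnb1 (log2 ratios of 0.12 and 0.042 on the log scales, -0.35 and -0.32 after thinning, 0.57 without its highest well, 0.62 without wells of over 9000 genes), Lmnb2 (-2.89 without wells with other markers), and, on the scales with 1 and 10 added, Syne3 (0.027 and 0.0083), Emd (0.48 and 0.20) and Lbr (0.95 and 0.52), and Syne2 (0.095) with 10 added. Of the 2 genes within the band, Lmna lay 0.54 below the median gene, and above it by 2.04 and 1.90 on the log scales and 0.03 after thinning to total counts, and Sun2 lay 0.94 above, and at -0.53 from it in YFP1 alone. Thinning and left-out wells remove counts by construction, and for the others the cause was not tested. Any count was more common in Renin-null wells for 5 members, and for 9 with a limit of 10 counts (73.7% of all genes) and 8 after thinning to non-mitochondrial counts (62.1%). No paired analysis was possible because the labels number wells, which share no source across genotypes.

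Each genotype is 1 sample, so no interval covers differences between mice or captures. The 3 members above the median gene (Lmnb1, Lmnb2 and Syne3) had under 100 WT counts, so that count of 3 and their places per kilobase rest on few counts.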
